A study of Mus musculus with 8 samples.

Results

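*Foxa2*, *Cxcl15*, *Wfdc3*, *Sox17*, *Sox9*, *Klf5* and *Spink1* are 7 genes tied to the epithelium and glands of the uterus, and their mRNA was followed in mouse uteri with and without conditional deletion of *Ezh2*. They were chosen by name from the 27179 genes that were counted. Of the 7 genes, 6 had at least 1 count, and 5 passed the filter on low counts that left 16658 genes for testing.

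In mice, uterine glands are absent at birth and develop over the following weeks, and their formation needs signals exchanged by epithelium and stroma. *Foxa2* encodes the forkhead transcription factor that marks glandular epithelium in the mouse uterus, and *Cxcl15*, *Wfdc3* and *Spink1* encode a chemokine, a WAP-domain protein and a trypsin inhibitor that belong to gland secretion. *Sox17*, *Sox9* and *Klf5* encode transcription factors of uterine epithelium, and *Sox17* is also a known gene of vascular endothelium.

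RNA-seq was performed on whole uteri at postnatal day (PD) 10, with 4 control libraries and 4 libraries from *Ezh2 Amhr2*-Cre cKO mice. Controls were *Ezh2* f/f, and cKO mice were *Ezh2* f/f with *Amhr2*-Cre (written Acre in the labels), so both groups carried floxed *Ezh2* alleles, on a C57BL/6/129SvEv background. *Amhr2*-Cre is active in cells of the Müllerian duct mesenchyme, which give rise to stroma and muscle, so the epithelial genes described here were read from whole organs in which another layer was the target of Cre. *Ezh2*, counted over the whole gene and not over the floxed exons, was 35.4 to 54.7 CPM, the counts of a gene scaled to a common library size, in controls and 30.4 to 40.7 CPM in cKO uteri, and these ranges overlapped (log2 fold change -0.29, edgeR adjusted p = 0.247). Libraries held 26234429 to 36685807 counts in controls and 25287141 to 32658315 in cKO uteri, so that 3 counts, taken as the limit that a count of 0 allows, were worth 0.0818 to 0.119 CPM. CPM here are scaled for library composition with TMM factors, and a log2 fold change is cKO minus control.

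*Foxa2* (Entrez 15376) lies at chr2:148042877-148046969 on the minus strand of GRCm38, and *Cxcl15* (Entrez 20309) lies at chr5:90794534-90803067 on the plus strand. Both genes fell in cKO uteri, so the 250 bases before 2 of the 3 *Foxa2* starts in the table, those of the middle and outer start, and before the *Cxcl15* start are shown, 5′ to 3′ on the strand of the gene, from the RefSeq promoter table of GRCm38.p6. Capitals mark matches on either strand to a GC box in the first window and to a TATA box in the last. The letters searched for a GC box were GGGCGGG.

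*Foxa2* middle start, chr2:148045949-148046198: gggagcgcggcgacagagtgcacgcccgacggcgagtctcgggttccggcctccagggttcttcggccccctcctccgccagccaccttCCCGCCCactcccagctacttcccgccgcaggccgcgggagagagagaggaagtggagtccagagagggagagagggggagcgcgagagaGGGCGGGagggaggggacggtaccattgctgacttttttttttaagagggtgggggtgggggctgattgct

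*Foxa2* outer start, chr2:148046970-148047219: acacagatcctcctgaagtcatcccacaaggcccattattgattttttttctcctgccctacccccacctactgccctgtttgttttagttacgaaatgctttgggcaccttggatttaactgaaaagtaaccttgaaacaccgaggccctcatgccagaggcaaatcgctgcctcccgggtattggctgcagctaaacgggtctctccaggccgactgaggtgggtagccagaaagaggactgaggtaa

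*Cxcl15* start, chr5:90794284-90794533: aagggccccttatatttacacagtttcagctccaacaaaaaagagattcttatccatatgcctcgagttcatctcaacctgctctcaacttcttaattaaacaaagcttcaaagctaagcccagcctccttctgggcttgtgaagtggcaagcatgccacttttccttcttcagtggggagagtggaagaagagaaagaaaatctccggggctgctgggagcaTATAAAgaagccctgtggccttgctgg

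The windows of these genes differed in base composition. The middle *Foxa2* window lies in an intron of the longer *Foxa2* transcript, is 67.2% G and C, and holds 20 CpG sites, more than 82.1% of the 32851 RefSeq windows of the same length. The outer *Foxa2* window holds 6 CpG sites, which is also the median over all windows. The window of the innermost *Foxa2* start, at chr2:148045465-148045714 and not printed, is 54.4% G and C and holds 13 CpG sites. The *Cxcl15* window is 46.4% G and C and holds 2 CpG sites, and 18.8% of windows hold fewer. The middle *Foxa2* window has 2 GC boxes, a match found in 23.4% of windows. A TATA box (TATAAA), found in 12.4% of windows, occurs once in the *Cxcl15* window and once in that of the innermost *Foxa2* start. No match overlapped another. A FOXA motif (TGTTTAC, present in 3.17% of windows) and a SOX motif (ACAAT, in 27.7%) were also searched on both strands, and neither was found in these windows. These matches describe letters and are not evidence of binding. The table matched 3 of the 7 genes, and the windows of *Sox17*, *Sox9* and *Klf5* were not analysed here.

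*Foxa2* mRNA fell to a trace in cKO uteri. Its level was 2.14, 2.17, 2.25 and 1.62 CPM in the 4 controls and 0.311, 0.301, 0.0924 and 0.385 CPM in the 4 cKO uteri. Every cKO library lay below every control, and the lowest of the controls was replicate 4. The counts behind these levels were 68, 56, 63 and 59 in controls and 8, 9, 3 and 11 in cKO uteri, a total of 246 against 31. The 3 counts of cKO replicate 3 carry an exact Poisson 95% interval of 0.619 to 8.77 counts, so the gene was still present above 0 counts in each library but close to the limit of detection. The mean fell from 2.04 ± 0.287 to 0.272 ± 0.126 CPM (SD, n = 4), leaving 13.3% of the control level. The log2 fold change was -2.91 with a standard error of 0.32 and a 95% confidence interval from -3.59 to -2.23 (edgeR adjusted p = 0.000241).

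*Cxcl15*, the gland chemokine, fell further in its mean. It was read at 4.23, 5.88, 4.60 and 2.25 CPM in controls and at 0.233, 0.602, 0.123 and 0.210 CPM in cKO uteri. The groups did not overlap, control replicate 4 was again the lowest control, and cKO replicate 3 was again the lowest of all libraries. Counts were 134, 152, 129 and 82 in controls and 6, 18, 4 and 6 in cKO uteri. The mean fell from 4.24 ± 1.50 to 0.292 ± 0.212 CPM (SD, n = 4), 6.89% of the control level. The log2 fold change of -3.83 (standard error 0.42, 95% confidence interval -4.75 to -2.91, edgeR adjusted p = 0.000385) placed *Cxcl15* at rank 4 from the lowest among the 16658 genes tested, where *Foxa2* held rank 13.

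*Sox9*, a transcription factor of glandular and progenitor epithelium in many organs, fell more modestly. It lies at chr11:112782210-112787757 (Entrez 20682). Controls had 6.84, 7.08, 8.63 and 8.62 CPM, and cKO uteri had 5.51, 3.88, 4.47 and 5.29 CPM, again with no overlap. The mean went from 7.79 ± 0.966 to 4.79 ± 0.753 CPM (SD, n = 4), 61.4% of the control level (log2 fold change -0.71, standard error 0.14, edgeR adjusted p = 0.0133).

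*Sox17* moved the other way. It lies at chr1:4490928-4497426 (Entrez 20671) and was abundant, with 132.9, 157.9, 169.1 and 160.2 CPM in controls and 179.2, 195.8, 208.3 and 204.8 CPM in cKO uteri. All 4 cKO libraries lay above all 4 controls. The mean rose 1.27-fold, from 155.0 ± 15.6 to 197.0 ± 13.0 CPM (SD, n = 4), with a log2 fold change of 0.35, a standard error of 0.08 and an edgeR adjusted p of 0.0211. This call was lost in 3 of the 8 fits that left out 1 library, with an adjusted p of 0.0628 without control replicate 1, 0.0548 without cKO replicate 2 and 0.0714 without cKO replicate 3.

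*Klf5*, a Krüppel-like factor of epithelial cells, was not called. It lies at chr14:99298691-99313412 (Entrez 12224). Controls had 38.2, 39.8, 44.6 and 46.9 CPM and cKO uteri had 47.5, 41.6, 46.9 and 52.9 CPM, and these ranges overlapped. The log2 fold change was 0.16 with a 95% confidence interval from -0.03 to 0.34 (edgeR adjusted p = 0.316). The interval reaches from no rise to a rise close to that of *Sox17*.

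The remaining gland products were near or under the limit of detection. *Wfdc3* (Entrez 71856, chr2:164731226-164745994) had 0, 4, 1 and 7 counts in controls and 0 counts in each of the 4 cKO uteri. The totals were 12 against 0, control replicate 1 also had no count, and no fold is given because the control level was itself near the floor of 3 counts per library. An exact permutation test of *Wfdc3* over the libraries gave p = 0.143. Without control replicate 1, the exact permutation test gave p = 0.0286. The exact permutation test gave p = 0.143 without control replicate 2, 3 or 4, and p = 0.257 without any single cKO replicate. The passing value therefore came from leaving out the only control with no count. *Spink1* had 0 counts in all 8 libraries, so a level of up to 3 counts per library cannot be told from absence at this depth.

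**Figure D1:**
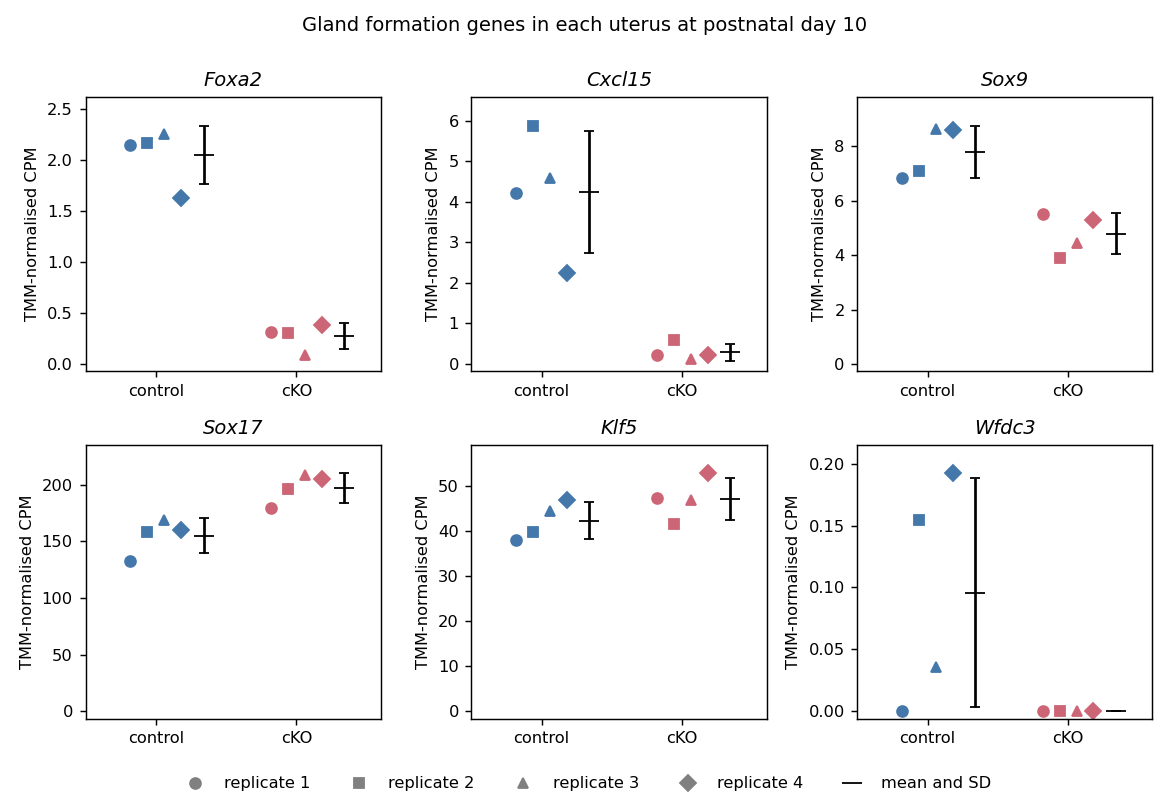
Level of each gland formation gene in every library, in TMM-scaled CPM on a linear axis of its own per panel, with 1 point per library (marker shape gives the replicate number) and the mean and SD (n = 4) beside each group. *Spink1* had 0 counts and is not plotted. *Foxa2*, *Cxcl15* and *Sox9* lie lower in every cKO library than in any control, *Sox17* lies higher in every cKO library, and the *Klf5* points of the groups overlap.

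Of the 5 genes tested, 4 passed an adjusted p under 0.05, where 5.34% of all genes tested did. In the lower direction 3 were called, against 2.71% of all genes, and in the higher direction 1 was called, against 2.62%. *Foxa2* and *Cxcl15* also passed the threshold of the study for DE genes, an adjusted p under 0.05 with more than a 2-fold difference, which 0.636% of genes passed in the lower direction. The groups stood fully apart in the lower direction for 3 of the 5 genes, against 6.43% of all genes tested, and in the higher direction for 1, against 5.9%. These shares are a description, since the genes were named with results of these libraries known. A two-sided exact permutation test over the 70 arrangements of the libraries gave p = 0.0286 for *Foxa2*, *Cxcl15*, *Sox9* and *Sox17* alike, the smallest value it can give, and p = 0.143 for *Klf5*.

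The differences of these genes were compared directly with each other in 3 pairs, using log2(CPM + 0.1) within each library. The difference of *Cxcl15* minus that of *Sox17* was -3.88 (exact permutation p = 0.0286, adjusted over the 3 pairs 0.0429), and the difference for *Foxa2* against *Sox17* was -2.94 (exact permutation p = 0.0286, adjusted 0.0429). Both follow from levels that already stood apart in opposite directions, and so add the size of the difference and no separate evidence. Between *Cxcl15* and *Foxa2* the difference was -0.93 and did not pass (exact permutation p = 0.0571, adjusted 0.0571). With 1 in place of 0.1 as the pseudocount its value was -0.72, with an exact permutation p of 0.0286, and without cKO replicate 2 it was -1.19 (exact permutation p = 0.0286). Whether *Cxcl15* fell more than *Foxa2* therefore depended on the pseudocount and on 1 library.

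Per kilobase of annotated exon, a scale on which levels of different genes can be set side by side, *Sox17* led in controls with 32.5 ± 3.26 CPM per kb (SD, n = 4). *Klf5* followed with a level of 8.15 ± 0.785 CPM per kb. *Cxcl15* at 1.99 ± 0.707 and *Sox9* at 1.88 ± 0.234 CPM per kb did not differ beyond their spread, and *Foxa2* came below both with 0.863 ± 0.121 CPM per kb. The order changed in cKO uteri. *Sox17* stood at 41.3 ± 2.73, *Klf5* at 9.08 ± 0.890 and *Sox9* at 1.16 ± 0.182 CPM per kb, while *Cxcl15* at 0.137 ± 0.0997 and *Foxa2* at 0.115 ± 0.0531 CPM per kb were last among the genes tested and did not differ beyond their spread.

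The level of an epithelial gene in a whole uterus depends on how much epithelium the sample holds, so 22 general epithelial genes such as keratins were read in the same libraries. Their summed level was 2166, 2143, 2502 and 2467 CPM in controls and 2483, 2276, 2572 and 2827 CPM in cKO uteri, which overlapped (log2 ratio 0.13, exact permutation p = 0.171). None of the 22 was called by edgeR's quasi-likelihood test, 5 had an unadjusted p under 0.05, and the median log2 fold change was 0.10 against 0.000440 over all genes tested. The share of all genes with an unadjusted p under 0.05 is not given, here or for the lists below. Such counts therefore have no background, and 1 gene with an unadjusted quasi-likelihood p of 0.0412, *Pibf1*, had an adjusted p of 0.214. DESeq2 called 2 of the 22 higher, the edgeR likelihood ratio test 1 and limma-voom 0. Of all 16658 genes tested, DESeq2 called 1510, the likelihood ratio test 1512, limma-voom 836 and the quasi-likelihood test 889 (5.34%). The lists below are read beside these shares, and few or no calls in a short list are near them. Among the 22, the quasi-likelihood test called 1 higher without cKO replicate 4, 2 higher with the replicate number as a block, and 1 lower with an epithelium score, a score of these genes, in the fit.

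Set against this epithelial sum, *Foxa2* stayed low. It was 0.990, 1.01, 0.898 and 0.657 per 1000 CPM of epithelial genes in controls and between 0.0359 and 0.136 in cKO uteri. *Cxcl15* went from 1.95, 2.74, 1.84 and 0.913 per 1000 in controls to 0.0938, 0.265, 0.0479 and 0.0743 in cKO uteri. *Sox9* went from 3.16, 3.30, 3.45 and 3.49 to 2.22, 1.71, 1.74 and 1.87. For these 3 genes the groups remained apart on this scale.

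*Sox17* no longer separated the groups on this scale, with 61.3, 73.7, 67.6 and 64.9 per 1000 in controls and 72.2, 86.0, 81.0 and 72.4 in cKO uteri. When the whole table was scaled to the epithelial genes, the median log2 fold change of all genes moved to -0.11, and 77.3% of called genes were lower, against 50.8% with TMM factors. *Sox17* then had a log2 fold change of 0.24 (edgeR adjusted p = 0.163), while *Foxa2* kept -3.02 (adjusted p = 2.59e-05), *Cxcl15* -3.94 (adjusted p = 0.000221) and *Sox9* -0.81 (adjusted p = 0.00357). In whole uteri, fewer cells of a type and less RNA per cell cannot be told apart, so these values do not say whether glandular cells were fewer or held less of these mRNAs.

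**Figure D2:**
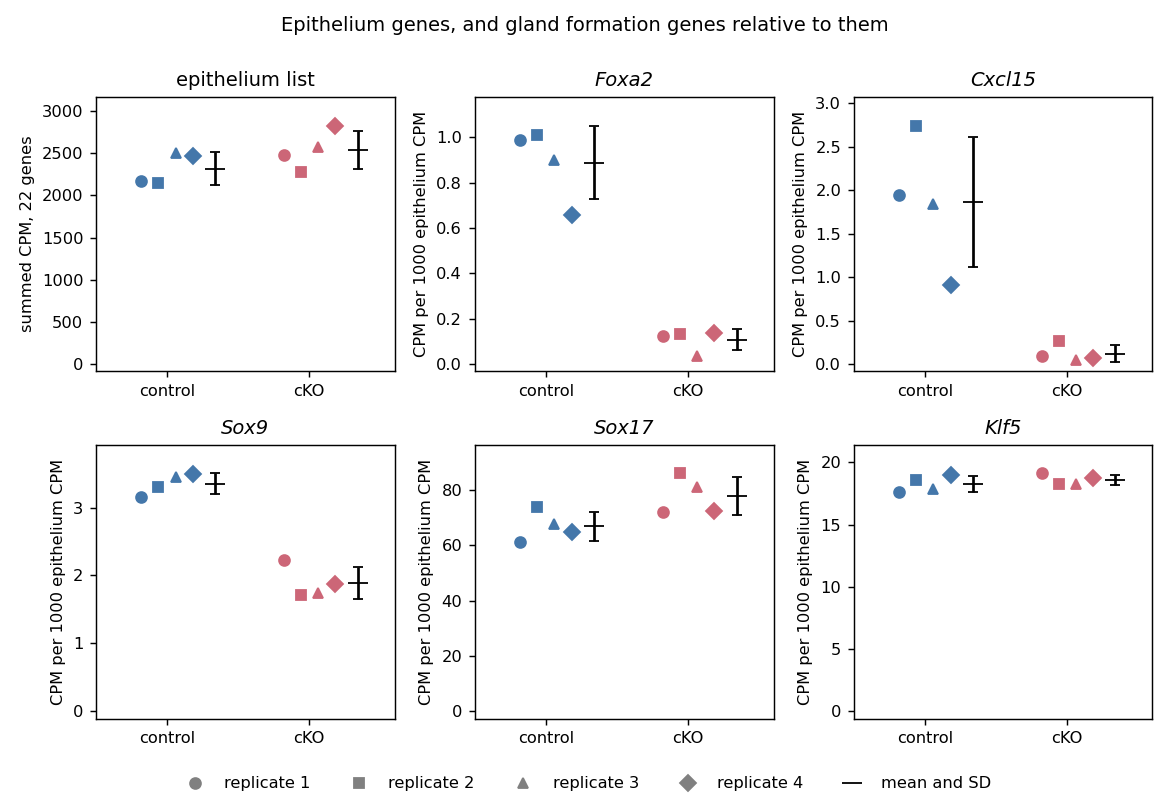
Summed CPM of the 22 epithelial genes in each library (first panel), and the level of the 5 tested gland formation genes per 1000 CPM of that sum (other panels), on linear axes, with 1 point per library and the mean and SD (n = 4) beside each group. *Foxa2*, *Cxcl15* and *Sox9* remain lower in every cKO library, whereas the *Sox17* and *Klf5* points of the groups overlap.

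Because *Sox17* is also expressed by blood vessels, 14 endothelial genes were read beside it. Their sum was 1225, 1384, 1161 and 1222 CPM in controls and 1375, 1423, 1398 and 1200 CPM in cKO uteri (exact permutation p = 0.257). None was called by edgeR, DESeq2, limma-voom or the edgeR likelihood ratio test, although 5 had an unadjusted p under 0.05 in edgeR's quasi-likelihood test, and the median log2 fold change was 0.18. The quasi-likelihood test called 5 of the 14 higher without cKO replicate 4, 1 without control replicate 2 and 8 with an epithelium score in the fit. In cKO replicate 4 the endothelial sum of 1200 CPM was within the range of controls, and *Sox17* was 204.8 CPM. The sums of the other 3 cKO libraries were above those of at least 3 of the 4 controls, and 12 of the 14 genes had a log2 fold change above 0. The part of endothelium in the *Sox17* level was not tested. The *Sox17* relatives of the endothelium were not called either, with log2 fold changes of 0.01 for *Sox7* (edgeR adjusted p = 0.935) and 0.26 for *Sox18* (adjusted p = 0.28).

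Fat genes were higher in 3 of the 4 cKO libraries. The sum of 11 fat genes was 7.3 to 17.6 CPM in controls and 114.1, 253.1, 121.6 and 9.2 CPM in cKO replicates 1 to 4, and the 8 that were tested had a median log2 fold change of 5.32. Of these 8, edgeR called 1 higher, *Adrb3*, and DESeq2 and the likelihood ratio test called 7. The quasi-likelihood test itself called 7 without cKO replicate 4 or with robust = FALSE, and 6 with the replicate number as a block. In cKO replicate 4, where the fat sum was within the range of controls, *Foxa2* at 0.385, *Cxcl15* at 0.210, *Sox9* at 5.29 and *Sox17* at 204.8 CPM were all outside the range of controls. When a score of the fat genes was added to the fit, *Foxa2* (-2.63, edgeR adjusted p = 0.0349) and *Cxcl15* (-5.11, adjusted p = 0.00938) kept their calls, while *Sox9* (-0.53, adjusted p = 0.448) and *Sox17* (0.37, adjusted p = 0.231) lost theirs. Fat genes were high in cKO replicates 1 to 3 and not in replicate 4, so their score and genotype were largely confounded. Over all genes tested, 889 calls became 116 with the score, and the *Sox17* log2 fold change was 0.35 without it. A call lost in this fit, here and below, therefore does not say where the difference came from. The part of fat in these values was not tested. The other tissue lists held 2 lower stromal genes, *Thy1* (log2 fold change -0.44) and *Amhr2* (-0.73), and 1 higher, *Col3a1* (0.36), of 10 tested. *Amhr2* also names the Cre driver, which only cKO mice carried, and the part of the driver allele in its level was not tested. DESeq2 called 3 stromal genes higher and the likelihood ratio test 2, and the *Col3a1* call was kept in 2 of the 8 fits that left out 1 library (without control replicate 2 or cKO replicate 4) and was lost with robust = FALSE. The replicate block gave 3 higher stromal genes and an epithelium score 4. With the fat score in the fit all 3 stromal calls were lost (*Thy1* -0.51, adjusted p = 0.0842, *Amhr2* -0.98, adjusted p = 0.0852, *Col3a1* 0.13, adjusted p = 0.868), and *Col3a1* also lost its call when scaled to the epithelial genes (adjusted p = 0.324). The stromal sum was 9754 to 12876 CPM in controls and 15198, 15016, 14948 and 11683 CPM in cKO replicates 1 to 4 (exact permutation p = 0.0857, and 0.857 for the geometric mean of the same genes). *Col3a1* made up 6702 of the 11683 CPM in cKO replicate 4. Smooth muscle and immune lists had no call in 8 genes each with edgeR's quasi-likelihood test, where 2 and 1 genes had an unadjusted p under 0.05. DESeq2 and the edgeR likelihood ratio test each called 1 smooth muscle gene higher and no immune gene, and limma-voom called none in either list. The quasi-likelihood test called 2 smooth muscle genes higher without control replicate 2 or with an epithelium score in the fit, 1 without cKO replicate 3 and 1 with the replicate number as a block, which also gave 1 immune gene lower.

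**Figure D3:**
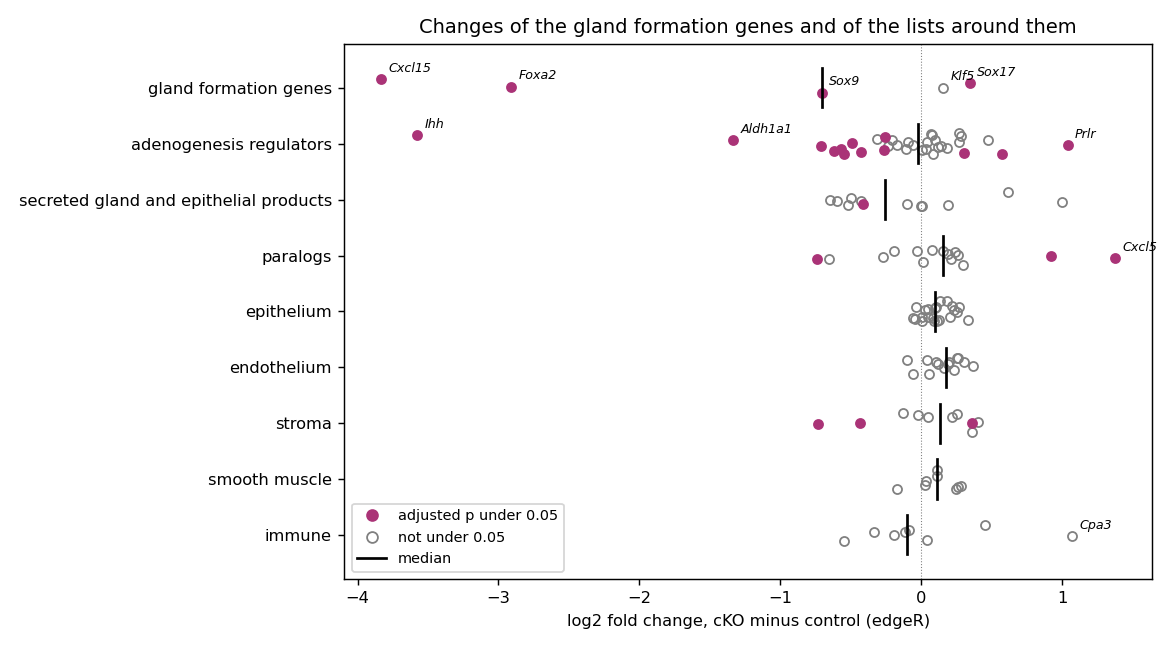
Log2 fold change (cKO minus control) of the tested gland formation genes and of each tested gene in 8 lists, 1 point per gene, filled where the adjusted p was under 0.05, with a black bar at each median and a dotted line at 0. *Foxa2* and *Cxcl15* lie far to the left, the epithelial genes lie between -0.06 and 0.33, and the genes listed as regulators reach down to -3.58.

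Relatives of the gland genes were read from a list of 23 family members, of which 15 were tested. The quasi-likelihood test called 2 higher and 1 lower, against 2.62% and 2.71% of all genes tested. *Foxa1*, the forkhead gene closest to *Foxa2*, had 0 counts in all 8 libraries, and *Foxa3* had 5, 1, 3 and 1 counts in controls and 10, 6, 9 and 5 in cKO uteri and was not tested. The chemokine gene *Cxcl5* rose, from 1.83, 1.16, 1.68 and 1.87 CPM in controls to 3.69, 3.98, 5.67 and 3.71 CPM in cKO uteri (log2 fold change 1.38, standard error 0.20, edgeR adjusted p = 0.00171), opposite to *Cxcl15*. The *Cxcl5* call was lost with the fat score in the fit (1.27, adjusted p = 0.0906). *Sox10* rose from 1.31 to 2.46 CPM (0.92, adjusted p = 0.0407), a call kept in 2 of the 8 fits that left out 1 library (without control replicate 2 or cKO replicate 4) and lost when scaled to the epithelial genes (adjusted p = 0.107) or with the fat score in the fit (0.49, adjusted p = 0.756). The WAP-domain gene *Wfdc1* fell from 89.1 to 53.4 CPM (-0.74, adjusted p = 0.000335). The other 12 tested were not called by edgeR's quasi-likelihood test, among them *Wfdc2* (565 to 644 CPM, log2 fold change 0.19), *Klf6* (-0.03), *Klf3* (0.16) and *Klf4* (0.07). DESeq2 called 3 of the 15 higher and 1 lower, limma-voom and the likelihood ratio test 2 and 1, and the quasi-likelihood test called 3 higher without control replicate 2.

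Other secreted products of glands and uterine epithelium formed a list of 15. Of these, 12 were tested and 1, the mucin gene *Muc1*, was called lower (39.8 to 29.8 CPM, log2 fold change -0.42, edgeR adjusted p = 0.0315), against 2.71% of all genes tested. That call was kept in 2 of the 8 fits that left out 1 library (without control replicate 4 or cKO replicate 4) and was lost with the replicate number as a block or the fat score in the fit. None was called higher by edgeR's quasi-likelihood test, 7 of the 12 had an unadjusted p under 0.05 in either direction, and DESeq2 and the edgeR likelihood ratio test each called 2 higher and 2 lower, and limma-voom 0 higher and 1 lower. The quasi-likelihood test called 2 lower and 1 higher without cKO replicate 4 or with robust = FALSE, and 1 higher and 1 lower, a gene other than *Muc1*, without control replicate 2. Scaling to the epithelial genes or an epithelium score gave 2 lower. *Calb1*, a calcium-binding protein gene, had 142 CPM in controls and 90.6 CPM in cKO uteri (-0.64, adjusted p = 0.0942), and *Lif*, the implantation cytokine gene, had a log2 fold change of 0.00. The serine protease genes *Prss28* and *Prss29* had 0 counts in all libraries.

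Genes linked to gland formation, here called regulators, were read from a list of 34, all tested. The list was chosen with earlier results of these data known, so its shares are a description. The authors call the role of hedgehog signaling, the pathway of *Ihh*, in uterine gland formation unclear. Of the 34, 10 were called lower, where 2.71% of all genes tested were, 3 were called higher, where 2.62% were, and 21 were not called by edgeR's quasi-likelihood test. DESeq2 called 11 lower and 4 higher, the likelihood ratio test 11 and 3, and limma-voom 10 and 3. The median log2 fold change was -0.03. Among ligands, *Ihh*, the hedgehog ligand of uterine epithelium, fell from 4.36 ± 0.950 to 0.360 ± 0.256 CPM (SD, n = 4, log2 fold change -3.58, standard error 0.34, edgeR adjusted p = 0.000105), a change between those of *Foxa2* and *Cxcl15*. The stromal ligand gene *Wnt5a* had 406, 384, 354 and 386 CPM in controls and 243, 270, 314 and 312 CPM in cKO uteri, with no overlap (-0.43, adjusted p = 0.0104). The growth factor genes *Inhba* (-0.71, adjusted p = 0.011) and *Hgf* (-0.57, adjusted p = 0.0322) fell, while *Wnt7b* (0.57, adjusted p = 0.0126) and *Igf1* (0.31, adjusted p = 0.0109) rose. The *Igf1* call was lost when scaled to the epithelial genes (0.20, adjusted p = 0.29) and without control replicate 1 (adjusted p = 0.0517).

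Among receptors, *Ror2*, a WNT5A receptor gene, fell by 0.27 on the log2 scale (edgeR adjusted p = 0.0258), and *Prlr*, the prolactin receptor gene, rose from 8.97 to 18.5 CPM (1.04, adjusted p = 0.0102). Among transcription factors, *Hoxa10* fell from 320 to 208 CPM (-0.62, adjusted p = 0.000377), *Hoxa11* from 172 to 123 CPM (-0.49, adjusted p = 0.00522), *Hoxd10* from 95.5 to 79.7 CPM (-0.26, adjusted p = 0.0395, or -0.37 and 0.0928 when scaled to the epithelial genes), and *Lef1*, a transcription factor of WNT signaling, from 20.6 to 14.1 CPM (-0.54, adjusted p = 0.00541). *Aldh1a1*, which encodes an enzyme that makes retinoic acid, fell from 115 to 45.7 CPM (-1.33, adjusted p = 0.0312). Not called were *Pgr* (583 to 469 CPM, -0.31, adjusted p = 0.176), *Esr1* (-0.11), *Fgfr2* (0.04), *Ctnnb1* (-0.06), *Cdh1* (0.10) and *Rbpj* (-0.09). With that fat score in the fit, 2 of the regulators were called lower and 0 higher, with log2 fold changes that stayed about as large for some (*Lef1* -0.60, *Hoxa11* -0.60, *Wnt7b* 0.58) and were smaller for others (*Prlr* 0.65, *Aldh1a1* -0.82, *Ror2* -0.16, *Wnt5a* -0.30). In fits that left out 1 library, the calls of *Hgf*, *Ror2*, *Hoxd10*, *Aldh1a1* and *Igf1* were lost at least once.

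**Figure D4:**
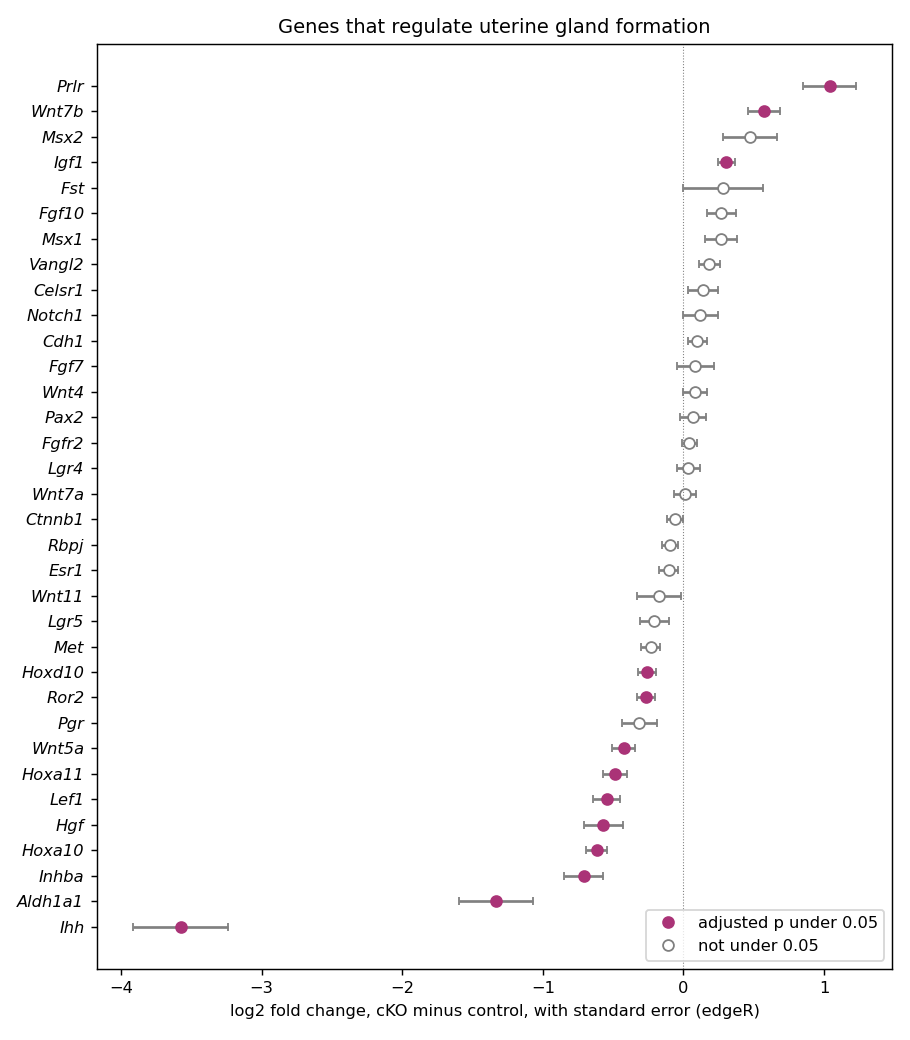
Log2 fold change (cKO minus control) of the 34 genes listed as regulators of gland formation, ordered by size, with bars of 1 standard error and filled points where the adjusted p was under 0.05. *Ihh* lies lowest at -3.58 and *Prlr* highest at 1.04, and 21 of the 34 are not called by edgeR's quasi-likelihood test.

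The genes whose levels followed those of *Foxa2* most closely over the 8 libraries, by the root mean square difference of log2(CPM + 0.1) centred on each gene's mean and among genes of at least 1 CPM on average, were *Gzma* (0.305), *Vit* (0.433) and *Cadps* (0.464), which encode a granule protease of NK cells, an extracellular matrix protein and a protein of vesicle release. Their log2 fold changes were -2.32, -2.72 and -2.50. For *Cxcl15* the closest were *Nalcn* (0.490), a sodium leak channel gene with a log2 fold change of -4.53, then *Foxa2* itself (0.651) and *Vit* (0.677). *Sox17* was followed most closely by *Cda* (0.0627), *Rtn4rl1* (0.0679) and *Sgk1* (0.0719). These distances describe 8 libraries in 2 groups and include any difference between genotypes that the genes share.

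The nearest gene on each side of these genes was also read. Of 14 neighbours, 6 were tested and edgeR called none (1 with an unadjusted p under 0.05, adjusted p from 0.214 to 0.988), and 4 had 0 counts in all libraries. With 5.34% of all genes tested called, no call among 6 genes says little about the neighbours. DESeq2, limma-voom and the edgeR likelihood ratio test called 0 of these 6. *Sstr4*, 348 kb after *Foxa2* in chromosome order, had a log2 fold change of 0.41, with cKO and control ranges that overlapped. Next to *Cxcl15*, the chemokine genes *Cxcl3*, 6.44 kb before it, and *Cxcl1*, 88.2 kb after it, had means of 0.0692 and 0.115 CPM in controls and 0.0935 and 0.197 CPM in cKO uteri, and were not tested. On either side of *Sox17*, *Rp1* had a log2 fold change of -0.01 and *Mrpl15* of -0.06. *Dnttip1*, which starts 0.020 kb from *Wfdc3*, had a log2 fold change of 0.11, and *Pibf1* next to *Klf5* had -0.20.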

How the data were processed

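RNA-seq was performed on whole uteri at PD10, with 4 controls and 4 cKO mice numbered as separate samples in the labels. The p-values of edgeR, DESeq2 and limma-voom set a group difference against the spread between these samples. The authors used Trimmomatic, HISAT2 (GRCm38) and featureCounts, and deposited raw gene counts, 1 table per library. The annotation release, strand setting and handling of reads shared by genes are not given in the sources used here. Their log2 normalized values were not used, and of their comparison table (log2 fold changes, log2 CPM, F, p-values) gene symbols alone were taken.

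Tests used edgeR 4.0.16 in R 4.3.3 (CPM above 0.2 in 4 or more libraries, TMM, glmQLFit and glmQLFTest with robust = TRUE, prior count 0.125, Benjamini-Hochberg adjustment over all genes tested), checked on simulated counts. The standard error is the absolute log2 fold change over the square root of F. Alternatives were limma 3.58.1 (voom), DESeq2 1.42.0, other scalings, filters and covariates, and omission of each library. Permutation tests were exact and two-sided, over the 70 arrangements of 8 libraries (fewer with 1 left out). Counting intervals and floors cover counting error only. Exon lengths came from GENCODE for GRCm38. Depths of 25287141 to 36685807 counts limit precision for genes of few counts, such as *Foxa2*.

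The members and gene lists were chosen with earlier results of these data known. Named were the members, their neighbours, the 3 closest patterns, up to 6 called genes per list by smallest p and, for regulators and relatives, up to 6 others of the highest level. *Igf1*, *Inhba*, *Wnt7b*, *Ror2*, *Hgf*, *Aldh1a1*, *Hoxd10*, *Calb1*, *Lif*, *Prss28*, *Prss29*, *Foxa1* and *Foxa3* fall outside that rule and were named after their values were seen.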

Additional observations from a re-analysis of the deposited data

Results flagged for a closer look

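In 6 of 132 groups of 4 libraries examined (4.55%), 1 library stood far from the other 3 by Dixon's test. The groups are not independent, since *Col3a1* is part of the stromal sum, so this share was not set against chance. Among the gland formation genes this was the *Foxa2* level of 1.62 CPM in control replicate 4, below the other controls and still above every cKO uterus. Without that library the *Foxa2* log2 fold change was -3.01 (edgeR adjusted p = 0.000283). The *Foxa2* neighbour *Sstr4* was lowest at 0.175 CPM in cKO replicate 4. *Wnt7b* was lowest at 7.85 CPM in control replicate 1, and *Cxcl5* was highest at 5.67 CPM in cKO replicate 3. In cKO replicate 4, *Col3a1* at 6702 CPM and the sum of the stromal genes at 11683 CPM were lower than in the other cKO uteri.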

How the results depend on the processing

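*Foxa2* and *Cxcl15* kept their direction and their call in all planned fits, with log2 fold changes of -3.14 to -2.60 for *Foxa2* and -5.11 to -3.55 for *Cxcl15* and adjusted p-values of at most 0.0349 and 0.00938. No result reversed, *Klf5* was called in none of the fits (0.03 to 0.33), and without the filter on low counts *Wfdc3* was not called (edgeR adjusted p = 0.115). When 1 library at a time was left out, log2 fold changes ran from -3.14 to -2.60 for *Foxa2*, -4.47 to -3.56 for *Cxcl15*, -0.78 to -0.61 for *Sox9* (largest adjusted p = 0.0467) and 0.28 to 0.39 for *Sox17*, and *Cxcl15* minus *Foxa2* ran from -1.19 to -0.71. It was -0.72 with a pseudocount of 1, which passed. *Sox17* lost its call when scaled to epithelial genes (0.24) and with the fat score (0.37), and *Sox9* with the fat score (-0.53).

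The 889 genes with an adjusted p under 0.05 became 1510 with DESeq2, 1512 with the likelihood ratio test, 116 with the fat score and 1623 with the epithelium score, and 393 to 1773 when 1 library was left out, fewest without control replicate 1, also under the main count by over 1.5 times without control replicate 3 (571) or cKO replicates 1 (452), 2 (485) and 3 (523), and most without cKO replicate 4. The 217 DE genes became 139 with CPM over 1, 356 with the likelihood ratio test, 48 with the fat score, 338 with the epithelium score and 134 to 320 without 1 library, with 134, 135 and 137 without control replicate 1, cKO replicate 1 and cKO replicate 2. In a comparison chosen after seeing the data, cKO replicate 4 alone against the 4 controls, with its spread assumed like theirs, no tested member was called: *Foxa2* -2.38 (edgeR adjusted p = 0.0768), *Cxcl15* -4.29 (0.108), *Sox9* -0.55 (0.575) and *Sox17* 0.41 (0.383), with 35 genes called and 20 DE. That comparison has fewer samples. The cause of the other shifts was not tested.

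With 1 library left out, *Hgf*, *Ror2* and *Aldh1a1* kept their calls in 3 of 8 fits, *Hoxd10*, *Muc1*, *Sox10* and *Col3a1* in 2, *Amhr2* in 6 (lost without control replicate 1 or cKO replicate 1) and *Igf1* in 7 (lost without control replicate 1), while 6 to 12 of the 34 regulators were called lower.

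Same-numbered libraries did not deviate together in every pair (correlations 0.0196, 0.110, -0.000260 and 0.190, and 3 of 8 libraries correlated best with their own number). With the replicate block, 1240 genes were called and 253 were DE, *Foxa2* had -2.91, *Cxcl15* -3.88, *Sox9* -0.71, *Sox17* 0.35 and *Klf5* 0.16, and no member's call changed, while *Muc1* lost its call.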

Other observations

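Genes of other epithelia that a dissected uterus could include were read beside the gland genes. The sum of 10 genes of stratified squamous epithelium, 9 of them tested, was 29.5 to 42.9 CPM in controls and 43.3 to 60.3 CPM in cKO uteri, with no overlap (exact permutation p = 0.0286, the smallest possible, and 0.0571 for their geometric mean), a median log2 fold change of 0.43, and 0 genes called by edgeR's quasi-likelihood test and by limma-voom, 3 with an unadjusted p under 0.05, 1 called higher by DESeq2 and 2 by the likelihood ratio test. The quasi-likelihood test called 1 higher with robust = FALSE, the replicate block or the epithelium score, and without control replicate 2 or cKO replicate 4. The sum of 6 urothelial genes was 41.0 to 100.3 CPM in controls and 66.4 to 99.7 CPM in cKO uteri (exact permutation p = 0.714, and 0.0286 for their geometric mean), with 0 called by edgeR's quasi-likelihood test, 2 with an unadjusted p under 0.05, 1 called higher by DESeq2 and by limma-voom and 2 by the likelihood ratio test. By quasi-likelihood, 1 was called higher with the replicate block or the epithelium score, when scaled to the epithelial genes and without control replicate 3. Of 9 ovary and oviduct genes 4 were tested, and the sums of all 9 were 8.84 to 11.3 CPM in controls and 8.02 to 13.8 CPM in cKO uteri (exact permutation p = 0.457), with 0 called by edgeR's quasi-likelihood test or limma-voom, 2 with an unadjusted p under 0.05, 1 called higher by DESeq2, and 1 higher and 1 lower by the likelihood ratio test. By quasi-likelihood, 1 higher and 1 lower were called with the replicate block or the epithelium score, and 1 higher without cKO replicate 4. The part of these tissues in the values of the gland genes was not tested.

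Control replicate 4 had the lowest control level of both *Foxa2* and *Cxcl15*, and its *Sox9* level of 8.62 CPM was close to the highest control, 8.63 CPM. cKO replicate 3 had the lowest cKO level of both *Foxa2* and *Cxcl15* and the highest cKO level of *Sox17*, 208.3 CPM.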
